A study of Mus musculus with 14 samples.

Results

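Fibroblasts, endothelial cells, carcinoma cells and macrophages surround the T cells of a tumor, and each is known by marker transcripts of its own. The 36 genes described here are markers of these cell types, 11 of fibroblast matrix, 3 of endothelium, 7 of carcinoma and epithelium and 12 of macrophages, together with Ncam1, Kit and Ccl2. They were chosen by name and matched by NCBI Gene number, and all 36 were among the 27179 genes of the count table.

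The libraries were made from regulatory T cells (Tregs), which depend on the transcription factor Foxp3 and hold other lymphocytes in check. The cells were sorted on a yellow fluorescent protein made together with Foxp3, directly from tissue. All mice carried a flank tumor of MC38, a mouse colon carcinoma line, and were sampled at its endpoint. Tumor Flox libraries (n = 3) and spleen Flox libraries (n = 3) came from strain B6.IL23RFlox FoxP3Cre-YFP, with both Il23r alleles floxed, in which a Cre made under Foxp3 control is designed to delete the IL-23 receptor gene in Tregs. Tumor WT libraries (n = 4) and spleen WT libraries (n = 4) came from strain B6.IL23RWT FoxP3Cre-YFP, whose Il23r is intact. Both strains thus carried the Cre and the reporter. Flox and WT stand throughout for what the libraries are labelled. The submitters state that they compared Flox with WT within a tissue. The labels do not say whether replicates are separate mice, so p-values measure the spread between these libraries, which may be partly technical.

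Matrix genes such as collagens, decorin and fibronectin are made mainly by fibroblasts, which build the scaffold of a tumor. Macrophages take up debris, and carry lysosomal proteases, complement C1q and receptors that signal through Tyrobp and Fcer1g. Colon carcinoma cells are epithelial in origin and are usually recognised by keratins, Epcam and E-cadherin. T cells are not known as a main source of any of these matrix or epithelial proteins, and a sort for a T cell reporter is meant to leave the other cells behind.

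The libraries held 4859099 to 10333892 counts and 13657 to 15312 detected genes. On unadjusted library totals, 3 counts amounted to between 0.29 and 0.617 CPM, the counts scaled to a common library total. The other CPM given here use adjusted totals, which differed from the unadjusted ones by factors of 0.744 to 1.26. Foxp3 stood at 98.3 to 268 CPM and Cd3e, a chain of the T cell CD3 complex, at 192 to 389.8 CPM in all 14 libraries, so the T cell label held in each. Il23r had 4 to 7 counts in tumor Flox against 0 to 2 in tumor WT libraries, and 0 to 9 in spleen Flox against 0 to 2 in spleen WT libraries. Which exons the Cre removes is not known from the sources used here, so gene-level counts do not check the labels. Flox and WT libraries also differed in the Y-linked gene Ddx3y, at 281 to 657 CPM in Flox against 0 to 127 CPM in WT libraries. Label and this difference cannot be told apart. WT replicate 2 of both tissues held Xist and Ddx3y reads together, and these same libraries had an Adgre1 level far above the others, described with the macrophage genes. Fold changes that these libraries moved by over 1.5-fold are given without them as well.

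RefSeq promoters (GRCm38.p6), the 250 bases before the gene start, were available for 20 of the 36 genes. Those of 3 genes that the results turn on are shown. They are the fibrillar collagens Col3a1 and Col1a2, both higher in tumor than in spleen libraries but highest in different tumor libraries. The other is Cd68, the macrophage gene with the smallest p between Flox and WT in tumor. Capitals mark letters found on either strand, with no overlap between matches. They are TATAAA of the TATA box, the CCAAT box, GGGCGG of the GC box bound by Sp1 and GAGGAA, a core recognised by the myeloid factor PU.1.
Col3a1, chr1:45311288-45311537, plus strand: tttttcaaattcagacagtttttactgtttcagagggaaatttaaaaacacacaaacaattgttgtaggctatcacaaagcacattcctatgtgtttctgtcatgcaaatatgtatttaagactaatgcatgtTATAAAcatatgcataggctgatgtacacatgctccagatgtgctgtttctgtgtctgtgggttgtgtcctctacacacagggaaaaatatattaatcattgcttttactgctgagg
Col1a2, chr6:4505368-4505617, plus strand: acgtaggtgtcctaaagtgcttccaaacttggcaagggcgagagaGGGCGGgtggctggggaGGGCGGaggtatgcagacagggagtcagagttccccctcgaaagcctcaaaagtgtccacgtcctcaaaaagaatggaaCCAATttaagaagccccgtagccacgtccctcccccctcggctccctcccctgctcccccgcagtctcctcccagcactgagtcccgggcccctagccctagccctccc
Cd68, chr11:69666171-69666420, minus strand: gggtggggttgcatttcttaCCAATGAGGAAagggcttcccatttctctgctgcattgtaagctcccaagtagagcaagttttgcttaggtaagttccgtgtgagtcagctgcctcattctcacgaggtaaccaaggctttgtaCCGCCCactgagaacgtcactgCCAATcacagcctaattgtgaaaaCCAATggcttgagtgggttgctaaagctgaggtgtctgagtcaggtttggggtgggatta
The Col3a1 window held TATAAA, which 12.4% of 32851 RefSeq promoters of this length also held. The Col1a2 window held CCAAT (33.8% of promoters) and GGGCGG (32.7%) but not TATAAA. The Cd68 window held CCAAT 3 times, GGGCGG on the strand opposite to the one printed and GAGGAA (23.3% of promoters). These matches describe the letters of the windows and do not show that a factor bound there.

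Tumor libraries held far more matrix, Sox9 and Ccl2 transcripts than spleen libraries, while Apoe and Epcam were lower. Of the 36 genes, 29 had enough counts for edgeR's quasi-likelihood test, in which p was adjusted by Benjamini-Hochberg over 12008 genes and called under 0.05. Of those 29, 20 were higher and 2 were lower in tumor, where 13% of all genes tested were called higher and 11.2% lower. In 14 of the 29 every tumor library lay above every spleen library, against 5.91% of all genes tested. The median log2 fold change of the 29 was 5.22, and 0.02 over all genes tested. Without both WT replicate 2 libraries 21 of the 29 passed. Within Flox libraries alone 13 of 26 genes tested passed, and within WT libraries alone 14 of 26. The genes were chosen as markers of cells around a tumor with results of these data known, so these shares describe the list. In spleen libraries alone 14 of the 36 had enough counts. The other genes of the 29 entered the test through their tumor counts, so the shares and the median lean towards genes high in tumor. Sorted cells were measured in bulk, and fewer cells of a type and less RNA per cell cannot be told apart.

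**Figure D1:**
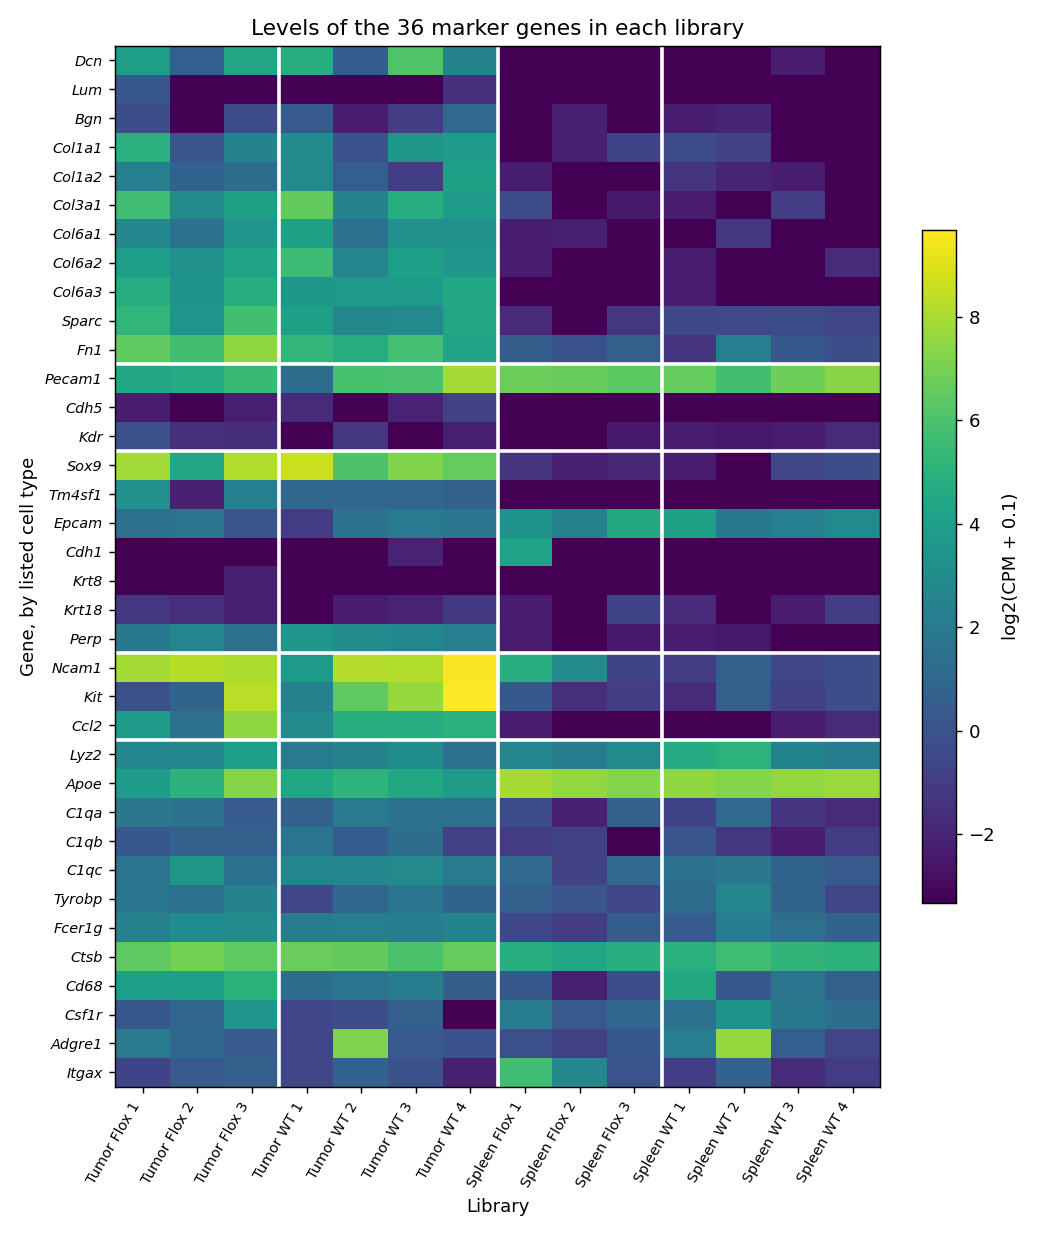
Level of each of the 36 genes (rows, by listed cell type) in each of the 14 libraries (columns), as colour on a log2(CPM + 0.1) scale. The matrix genes, Sox9, Tm4sf1, Perp and Ccl2 are bright in the 7 tumor columns and dark in the 7 spleen columns, Apoe is brighter in spleen, and Krt8, Lum and Cdh5 are dark nearly everywhere.

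Fibroblast matrix genes were high in tumor and close to 0 in spleen. Their summed level was 282, 96.8 and 341 in tumor Flox and 268, 63.1, 209 and 135 in tumor WT libraries, against 2.51, 1.24 and 2.34 in spleen Flox and 2.35, 6.4, 2.37 and 1.5 in spleen WT libraries, in CPM. The 7 tumor libraries averaged 199 ± 104 CPM and the 7 spleen libraries 2.67 ± 1.71 CPM (SD), and the tissues did not overlap. Within tumor, Flox replicate 3 was the highest library and WT replicate 2 the lowest. All 9 matrix genes tested were called higher in tumor, and for all 9 no tumor library overlapped a spleen library. Of the 9, only Fn1 had enough counts in spleen libraries alone, so the direction of the others was largely set by the filter.

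Fn1 (chr1:71585473-71653280) encodes fibronectin, a matrix glycoprotein to which integrins bind, and gave 35.7% of the matrix counts in tumor. Fn1 had 92.1, 53.6 and 186 CPM in tumor Flox and 37.7, 26, 55.2 and 19 CPM in tumor WT libraries, against 1.3, 0.87 and 1.42 CPM in spleen Flox and 0.307, 4.68, 1.08 and 0.752 CPM in spleen WT libraries. Tumor Flox replicate 3 was highest, and the lowest tumor library was still above the highest spleen library. The log2 fold change of tumor over spleen was 5.40 ± 0.68 (SE; edgeR adjusted p = 0.00019), and 6.02 without spleen WT replicate 2 or 6.04 without both WT replicate 2 libraries. Sparc, which encodes a collagen-binding matricellular protein, had 37.2, 10.6 and 53.3 CPM in tumor Flox and 16.4, 6.24, 7.32 and 20.3 CPM in tumor WT libraries, against 0.20, 0 and 0.335 CPM in spleen Flox and 0.614, 0.624, 0.69 and 0.564 CPM in spleen WT libraries. All tumor libraries were above all spleen libraries, with tumor Flox replicate 3 again the highest (log2 fold change 5.84 ± 0.62, edgeR adjusted p = 6.59e-05).

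Col3a1 (chr1:45311538-45349706) encodes the chain of type III collagen, a fibrillar collagen of elastic tissues. Col3a1 had 51.5, 7.01 and 16.7 CPM in tumor Flox and 93.2, 5.59, 27 and 14.4 CPM in tumor WT libraries, against 0.701, 0 and 0.0837 CPM in spleen Flox and 0.102, 0, 0.395 and 0 CPM in spleen WT libraries. Tumor WT replicate 1 was highest and tumor WT replicate 2 lowest among tumor libraries, and none overlapped a spleen library (log2 fold change 7.20 ± 1.12, edgeR adjusted p = 0.000815). Its promoter is the TATAAA-bearing sequence above. Type I collagen is built of chains from Col1a1 (chr11:94936224-94953042) and Col1a2 (chr6:4505618-4541543). Col1a1 had 30.7, 1.02 and 5.52 CPM in tumor Flox and 7.62, 0.861, 11.7 and 14.1 CPM in tumor WT libraries, against 0, 0.124 and 0.502 CPM in spleen Flox and 0.716, 0.468, 0 and 0 CPM in spleen WT libraries. Col1a2 had 4.81, 1.53 and 2.37 CPM in tumor Flox and 7.23, 1.4, 0.422 and 17.2 CPM in tumor WT libraries, against 0.10, 0 and 0 CPM in spleen Flox and 0.307, 0.156, 0.0986 and 0 CPM in spleen WT libraries. Both were separated by tissue, with log2 fold changes of 5.22 ± 1.08 for Col1a1 (edgeR adjusted p = 0.00451) and 5.62 ± 0.95 for Col1a2 (edgeR adjusted p = 0.00137). Col1a1 was at 4.26 without tumor Flox replicate 1 and 6.05 without spleen Flox replicate 3. Without spleen Flox replicate 1 Col1a2 was at 6.46 and Col3a1 at 8.27, and Col3a1 was at 7.94 without spleen WT replicate 3. The calls held in each case. The chains of type I collagen did not keep a fixed ratio across tumor libraries. Tumor WT replicate 3 held 83 Col1a1 counts and 3 Col1a2 counts, while tumor WT replicate 4 held 115 Col1a1 counts and 140 Col1a2 counts.

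Type VI collagen forms beaded microfibrils near cell surfaces, and its classical chains are encoded by Col6a1, Col6a2 and Col6a3. Col6a1 had 6.58, 2.93 and 10.7 CPM in tumor Flox and 17.4, 2.9, 9.57 and 9.21 CPM in tumor WT libraries, against 0.10, 0.124 and 0 CPM in spleen Flox and 0, 0.312, 0 and 0 CPM in spleen WT libraries. Col6a2 had 15.8, 9.06 and 18.3 CPM in tumor Flox and 48.5, 6.02, 16.3 and 10.8 CPM in tumor WT libraries, against 0.10, 0 and 0 CPM in spleen Flox and 0.102, 0, 0 and 0.188 CPM in spleen WT libraries. Col6a3 had 26.3, 9.69 and 27.5 CPM in tumor Flox and 12.1, 12.7, 13.5 and 22 CPM in tumor WT libraries, against 0, 0 and 0 CPM in spleen Flox and 0.102, 0, 0 and 0 CPM in spleen WT libraries. All 3 chains were present in every tumor library and stood at 0 in most spleen libraries. Log2 fold changes were 6.41 ± 0.84 for Col6a1 (edgeR adjusted p = 0.000273), 8.19 ± 0.87 for Col6a2 (edgeR adjusted p = 6.59e-05) and 9.54 ± 0.72 for Col6a3 (edgeR adjusted p = 2.18e-05). The 7 spleen libraries together held 3 Col6a2 counts and 1 Col6a3 count, so the fitted values rest on few reads. Leaving out 1 spleen library brought Col6a1 to 7.84 (WT replicate 2), Col6a2 to 9.05 (Flox replicate 1) and Col6a3 to 10.3 (WT replicate 1), and Col6a1 was at 7.96 without both WT replicate 2 libraries. The ratio of depth-scaled counts, tumor over spleen, was 282 (95% counting interval 96.3 to 1372) for Col6a2. For Col6a3 it was 975 (95% counting interval 175 to 38554).

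Dcn encodes decorin, a small proteoglycan that coats collagen fibrils. Dcn had 14.9, 1.4 and 19.7 CPM in tumor Flox and 27.2, 1.29, 68.1 and 5.52 CPM in tumor WT libraries. Its level ran from 1.29 CPM in tumor WT replicate 2 to 68.1 CPM in tumor WT replicate 3, while 1 count in all was found in the 7 spleen libraries. The fitted log2 fold change was 9.52 ± 1.36 (edgeR adjusted p = 0.000853) and the ratio of depth-scaled counts 958 (95% counting interval 172 to 37879). The fitted value was 10.3 without spleen WT replicate 3. Lum and Bgn, which encode the related proteoglycans lumican and biglycan, were too low to be tested. Lum had 10 counts in tumor Flox replicate 1, 2 in tumor WT replicate 4 and 0 in the other 12 libraries. Against a floor of 3 counts over the spleen group it was 3.80-fold higher in tumor (lower 95% counting limit 2.64). Bgn had 7, 0 and 6 counts in tumor Flox and 6, 1, 3 and 17 in tumor WT libraries, against 0, 1 and 0 in spleen Flox and 1, 2, 0 and 0 in spleen WT libraries. The ratio of its depth-scaled counts was 9.5 (95% counting interval 3.43 to 36.5). Decorin was therefore found in all 7 tumor libraries, lumican in 2 and biglycan in 6.

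The matrix genes did not peak together. The highest CPM fell in tumor Flox replicate 3 for 3 of the 11, in tumor WT replicate 1 for 3, in tumor Flox replicate 1 for 2, in tumor WT replicate 4 for 2 and in tumor WT replicate 3 for 1. Per kilobase of merged exon (GENCODE M21), the mean tumor level was 5.74 ± 4.94 CPM per kb for Fn1, 5.71 ± 4.62 for Sparc, 3.38 ± 4.01 for Dcn and 3.13 ± 3.22 for Col3a1 (SD, n = 7). These 4 means lay within each other's SD. A further list of 15 fibroblast genes was also searched, of which 8 could be tested. All 8 were called higher in tumor, led by Fbn1 (fibrillin), Thbs2 (thrombospondin) and Serpinf1, where 13% of all genes tested were called higher. In spleen libraries alone 0 of the 15 had enough counts, so all 8 entered the test through tumor and their direction was largely set. The list summed to 550 CPM in tumor Flox replicate 3 and to 17.3 to 66.8 CPM in the other tumor libraries.

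**Figure D2:**
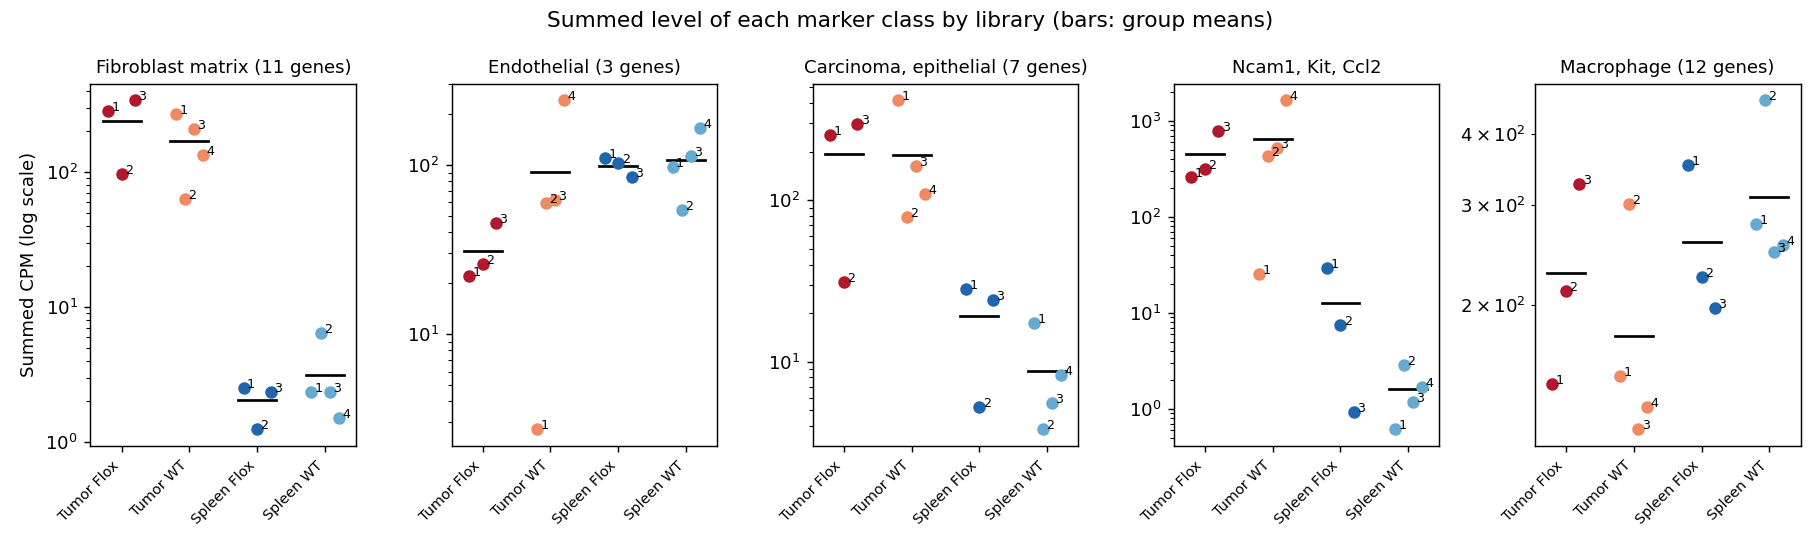
Summed CPM of the genes of each class (log scale) in the 4 groups, tumor Flox, tumor WT, spleen Flox and spleen WT. Points are libraries with their replicate numbers and bars are group means. Matrix sums lie at 63.1 CPM or more in tumor and at 6.40 CPM or less in spleen, while endothelial and macrophage sums overlap between tissues.

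Endothelial genes did not follow the matrix genes. Pecam1 (chr11:106654213-106715281) encodes the adhesion molecule CD31, which endothelium shares with leukocytes and platelets, and gave 99.4% of the class counts in tumor and 99.9% in spleen. Pecam1 had 21.2, 25.8 and 45 CPM in tumor Flox and 2.54, 58.8, 61.8 and 241 CPM in tumor WT libraries, against 109, 102 and 85.2 CPM in spleen Flox and 97.1, 54.4, 113 and 164 CPM in spleen WT libraries. Tumor WT replicate 1 was lowest and tumor WT replicate 4 highest, so tumor libraries lay on both sides of the spleen range. The log2 fold change was -0.96 ± 0.65 and did not pass (edgeR adjusted p = 0.305). Kdr, the receptor for vascular endothelial growth factor, had 8, 2 and 2 counts in tumor Flox and 0, 3, 0 and 1 in tumor WT libraries, against 0, 0 and 1 in spleen Flox and 1, 1, 1 and 1 in spleen WT libraries. The ratio of its depth-scaled counts was 3.04 (95% counting interval 1.06 to 10.6). Leaving out tumor Flox replicate 1 brought that ratio to 1.80. Cdh5, the cadherin of endothelial junctions, had 8 counts over 5 tumor libraries and 0 in spleen. Against a floor of 3 counts over the spleen group it was 2.53-fold higher in tumor (lower 95% counting limit 1.62). In a further list of 10 endothelial genes, none could be tested, Emcn, Cldn5 and Ptprb were at 0 in all 14 libraries, and the list summed to 24 counts in tumor and 30 in spleen. Summed levels of that list ran from 0.104 to 0.859 CPM in tumor and from 0.188 to 0.780 CPM in spleen libraries.

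Carcinoma and epithelial genes split. The summed level of the 7 genes was 252, 31.1 and 296 in tumor Flox and 416, 79, 162 and 109 in tumor WT libraries, against 28.4, 5.22 and 24.1 in spleen Flox and 17.5, 3.82, 5.52 and 8.27 in spleen WT libraries, in CPM. Every tumor library lay above every spleen library, but Sox9 gave 93.5% of the counts in tumor and Epcam 77.3% of those in spleen. Of the 4 genes tested, Sox9, Tm4sf1 and Perp were called higher and Epcam lower in tumor. Of these, only Epcam had enough counts in spleen libraries alone.

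Sox9 (chr11:112782210-112787757) encodes a transcription factor of cartilage and of progenitor cells in gut epithelium. Sox9 had 236, 21.3 and 287 CPM in tumor Flox and 403, 66.3, 149 and 98.9 CPM in tumor WT libraries, against 0.301, 0.124 and 0.167 CPM in spleen Flox and 0.102, 0, 0.592 and 0.752 CPM in spleen WT libraries. Tumor WT replicate 1 was highest and tumor Flox replicate 2 lowest in tumor, with no overlap with spleen (log2 fold change 9.37 ± 1.06, edgeR adjusted p = 9.9e-05). Per kilobase, its mean tumor level of 43.6 ± 32.7 CPM per kb (SD, n = 7) was the highest mean of the 36 genes, followed by Ccl2 at 37.1 ± 55.8 and Ncam1 at 36.5 ± 26.6, and these 3 did not differ beyond their SD. Perp, a p53 target that encodes a desmosome-associated membrane protein, had 3.76, 6.38 and 2.93 CPM in tumor Flox and 11.1, 7.75, 6.33 and 4.66 CPM in tumor WT libraries, against 0.10, 0 and 0.0837 CPM in spleen Flox and 0.102, 0.078, 0 and 0 CPM in spleen WT libraries. Its tumor levels stayed between 2.93 and 11.1 CPM and did not overlap spleen (log2 fold change 6.31 ± 0.58, edgeR adjusted p = 2.61e-05). Tm4sf1, a membrane protein of endothelium and many carcinomas, had 9.61, 0.128 and 4.73 CPM in tumor Flox and 1.95, 1.94, 1.83 and 1.47 CPM in tumor WT libraries. Tumor Flox replicate 2 held 1 count, tumor Flox replicate 1 was highest, and all spleen libraries were at 0. Its level was thus 59.5-fold higher in tumor against a floor of 3 counts over the spleen group (lower 95% counting limit 47.9, edgeR adjusted p = 0.00263).

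Epcam (chr17:87635979-87651127), an adhesion molecule of epithelium, went the other way. Epcam had 2.61, 3.06 and 1.01 CPM in tumor Flox and 0.391, 2.9, 3.94 and 3.31 CPM in tumor WT libraries, against 9.92, 5.1 and 23.4 CPM in spleen Flox and 17.1, 3.75, 4.83 and 7.14 CPM in spleen WT libraries. Tumor WT replicate 1 was lowest and spleen Flox replicate 3 highest, and the tissues overlapped only in that tumor WT replicate 3 exceeded spleen WT replicate 2. The log2 fold change was -2.07 ± 0.56 (edgeR adjusted p = 0.0173). Leaving out spleen Flox replicate 3 gave -1.69 and ended the call (edgeR adjusted p = 0.0503). Within Flox libraries alone it was -2.51 and within WT libraries alone -1.60, and neither passed (edgeR adjusted p = 0.0923 in Flox and 0.187 in WT).

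Keratins and E-cadherin are the textbook markers of colon carcinoma. The keratins were nearly missing, and E-cadherin was nearly missing outside 1 spleen library. Krt8 had 1 count, in tumor Flox replicate 3, and its keratin partner Krt18 had 11 counts in tumor and 12 in spleen, a depth-scaled ratio of 0.87 (95% counting interval 0.348 to 2.15). Cdh1, which encodes E-cadherin, had 179 counts in spleen Flox replicate 1, 1 in tumor WT replicate 3 and 0 in the other 12 libraries. That spleen library thus held 99.4% of all Cdh1 counts, and no spleen or tumor level can be set from the rest. In a further list of 16 epithelial and carcinoma genes, 3 could be tested, none was called, and Krt19, Cldn3, Cldn4, Cdx1, Cdx2 and Esrp1 were at 0 in every library. The list summed to 765 counts in tumor, at 3.06 to 39.8 CPM, and to 1076 counts in spleen, at 2.86 to 43.2 CPM. High Sox9, Tm4sf1 and Perp in tumor thus came with almost no keratin or claudin reads, and no deposited library of MC38 cells was used here to set the level of these genes in that line.

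**Figure D3:**
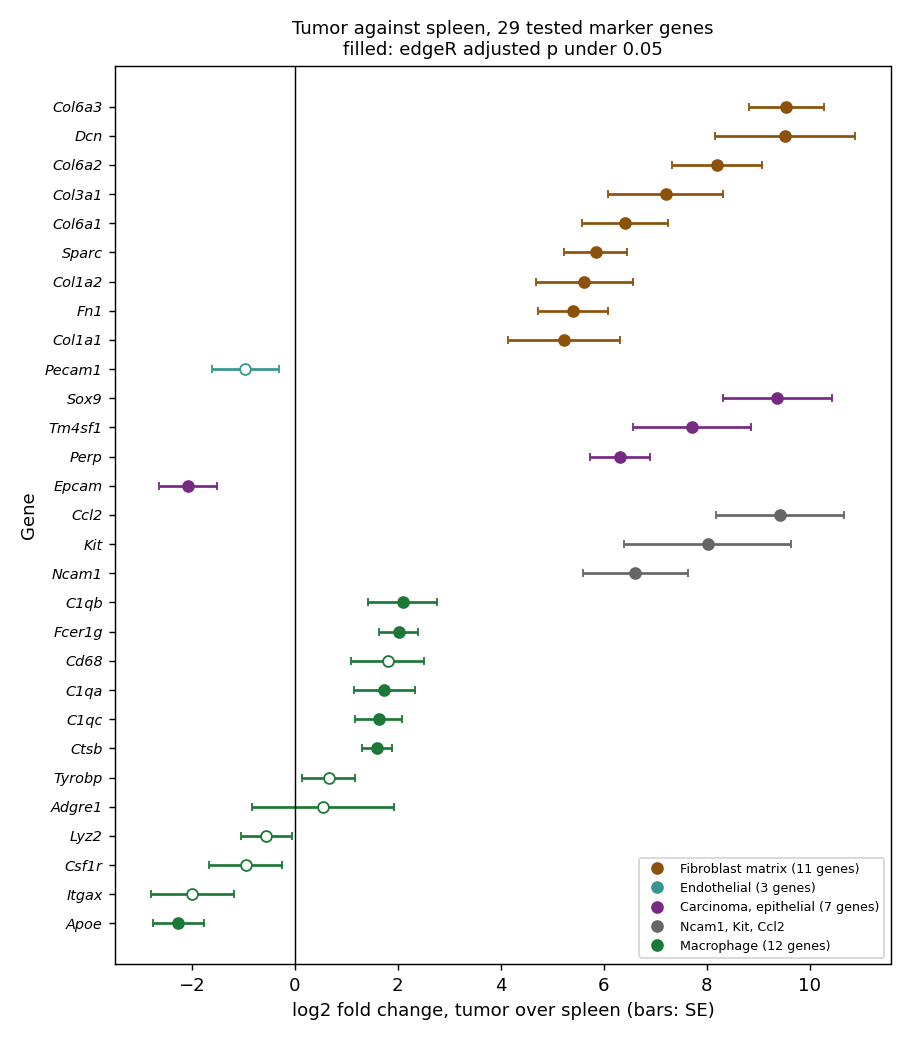
Log2 fold change of tumor over spleen with its SE (horizontal axis) for the 29 genes tested, grouped by class. Filled points passed at an edgeR adjusted p under 0.05. All 9 matrix genes and 3 of 4 carcinoma genes lie far to the right, macrophage genes lie between -2.26 and 2.10, and the fitted position of Tm4sf1, at 0 in spleen, depends on the prior count.

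Ncam1, Kit and Ccl2 were all called higher in tumor. Ncam1 (chr9:49502129-49799393) encodes a neural adhesion molecule that some lymphocytes also carry. Ncam1 had 245, 308 and 270.2 CPM in tumor Flox and 13.3, 304, 290.3 and 784 CPM in tumor WT libraries, against 28.1, 7.21 and 0.502 CPM in spleen Flox and 0.409, 1.48, 0.592 and 0.752 CPM in spleen WT libraries. It was high in 6 of 7 tumor libraries, while tumor WT replicate 1 was below spleen Flox replicate 1 (log2 fold change 6.62 ± 1.02, edgeR adjusted p = 0.000781). Kit (chr5:75574987-75656722) encodes the receptor for stem cell factor, on which mast cells and early progenitors depend. Kit had 0.836, 1.66 and 318 CPM in tumor Flox and 5.08, 90.6, 201 and 820.3 CPM in tumor WT libraries, against 1.1, 0.249 and 0.419 CPM in spleen Flox and 0.205, 1.4, 0.493 and 0.752 CPM in spleen WT libraries. It ran from near the spleen level in tumor Flox replicates 1 and 2 to 820.3 CPM in tumor WT replicate 4, which held 56.3% of all its counts (log2 fold change 8.02 ± 1.62, edgeR adjusted p = 0.00384). Without spleen Flox replicate 1 the log2 fold change of Ncam1 was 7.42. Leaving out tumor Flox replicate 3 brought that of Kit to 4.81 (edgeR adjusted p = 0.00677) and leaving out tumor WT replicate 4 to 7.27. Within Flox libraries alone neither Ncam1 (4.52, edgeR adjusted p = 0.0884) nor Kit (7.45, edgeR adjusted p = 0.127) passed.

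Ccl2 (chr11:82035577-82037452) encodes the chemokine that draws monocytes bearing Ccr2. Ccl2 had 13.8, 2.81 and 184 CPM in tumor Flox and 7.23, 29.7, 26.7 and 31.4 CPM in tumor WT libraries. Tumor Flox replicate 3 held 64.1% of its counts, and the 7 spleen libraries held 3 counts in all. The fitted log2 fold change was 9.41 ± 1.24 (edgeR adjusted p = 0.000286) and the ratio of depth-scaled counts 806 (95% counting interval 275 to 3910.2). The fitted value was 7.91 without tumor Flox replicate 3 and 10.3 without spleen Flox replicate 1, and both passed. Ccr2, its receptor, which lymphocytes and monocytes both carry, led a further list of macrophage and monocyte genes (log2 fold change 4.96 ± 0.47, edgeR adjusted p = 3.46e-05).

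Macrophage genes did not move as a block. Their summed level was 145, 212 and 327 in tumor Flox and 150.5, 302, 121 and 132 in tumor WT libraries, against 354, 225 and 198 in spleen Flox and 278, 459, 248 and 255 in spleen WT libraries, in CPM. The sums overlapped, at 199 ± 84.4 CPM in tumor and 288 ± 89.8 CPM in spleen (SD, n = 7 each). Ctsb gave 45.9% of the class counts in tumor and Apoe 62.8% in spleen. Of the 12 genes, all tested, 5 were called higher and 1 lower in tumor, and 6 did not pass.

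Apoe (chr7:19696244-19701310) encodes a lipid carrier secreted by macrophages. Apoe had 14.3, 32.9 and 157 CPM in tumor Flox and 21.9, 35.6, 22.2 and 14.4 CPM in tumor WT libraries, against 256, 188 and 152 CPM in spleen Flox and 183, 152, 192 and 208 CPM in spleen WT libraries. All tumor libraries lay below all spleen libraries except tumor Flox replicate 3, which exceeded spleen Flox replicate 3 and spleen WT replicate 2. The log2 fold change was -2.26 ± 0.49 (edgeR adjusted p = 0.00561), and within Flox libraries alone it was -1.55 and did not pass (edgeR adjusted p = 0.318). Without tumor Flox replicate 3 it was -3.02 (edgeR adjusted p = 0.000574). Per kilobase, Apoe had the highest mean spleen level of the 36 genes, 89 ± 16.6 CPM per kb, beyond the SD of the next, Pecam1, at 16.6 ± 5.32 (n = 7).

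Ctsb (chr14:63122462-63145923) encodes cathepsin B, a lysosomal protease of many cell types. Ctsb had 87, 124 and 90.6 CPM in tumor Flox and 104, 93.7, 63 and 98.7 CPM in tumor WT libraries, against 28.9, 21.6 and 28.1 CPM in spleen Flox and 30.6, 49.7, 35.8 and 33.1 CPM in spleen WT libraries. Every tumor library was above every spleen library (log2 fold change 1.61 ± 0.29, edgeR adjusted p = 0.00207), though it passed neither within Flox libraries alone (1.95, edgeR adjusted p = 0.0597) nor within WT libraries alone (1.26, edgeR adjusted p = 0.121). Some 12.8% of its exon bases overlap Fdft1 on the other strand, and whether counting used strand is not known from the sources used here. Fcer1g, the signalling chain shared by Fc receptors, had 5.22, 8.03 and 7.55 CPM in tumor Flox and 4.49, 4.73, 4.36 and 5.65 CPM in tumor WT libraries, against 0.601, 0.373 and 1.34 CPM in spleen Flox and 1.23, 4.53, 2.66 and 1.69 CPM in spleen WT libraries. Spleen WT replicate 2 reached the lower end of the tumor range (log2 fold change 2.02 ± 0.38, edgeR adjusted p = 0.00262). Within WT libraries alone Fcer1g did not pass (0.90, edgeR adjusted p = 0.235).

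The subunits of complement C1q, made chiefly by macrophages, were low in both tissues. C1qa had 3.45, 2.81 and 1.24 CPM in tumor Flox and 1.56, 4.09, 2.81 and 2.7 CPM in tumor WT libraries, against 0.701, 0.124 and 1.42 CPM in spleen Flox and 0.512, 2.11, 0.296 and 0.188 CPM in spleen WT libraries. C1qb had 1.04, 1.53 and 1.46 CPM in tumor Flox and 3.32, 1.29, 2.53 and 0.491 CPM in tumor WT libraries, against 0.401, 0.497 and 0 CPM in spleen Flox and 1.02, 0.312, 0.0986 and 0.376 CPM in spleen WT libraries. C1qc had 3.13, 11.6 and 2.93 CPM in tumor Flox and 6.06, 6.35, 6.89 and 3.93 CPM in tumor WT libraries, against 2.1, 0.497 and 2.09 CPM in spleen Flox and 2.56, 3.51, 1.68 and 1.13 CPM in spleen WT libraries. All 3 averaged higher in tumor with overlapping libraries, at log2 fold changes of 1.74 ± 0.59 for C1qa (edgeR adjusted p = 0.0494), 2.10 ± 0.67 for C1qb (edgeR adjusted p = 0.0379) and 1.63 ± 0.45 for C1qc (edgeR adjusted p = 0.02). These calls were fragile. C1qa passed only without tumor WT replicate 1, spleen Flox replicate 3 or spleen WT replicate 2, and lost its call without any of the other 11 libraries, with log2 fold changes of 1.49 to 2.33 over the 14 omissions. C1qb passed only without tumor WT replicate 2, tumor WT replicate 4 or spleen WT replicate 1, with log2 fold changes of 1.78 to 2.5, and did not pass without both WT replicate 2 libraries (2.06, edgeR adjusted p = 0.0733). C1qc lost its call without tumor Flox replicate 2, at 1.14 (edgeR adjusted p = 0.0693).

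The remaining 6 macrophage genes did not pass with all libraries. Log2 fold changes were 1.81 ± 0.70 for Cd68 (edgeR adjusted p = 0.0799), 0.66 ± 0.52 for Tyrobp, the adaptor DAP12, and 0.54 ± 1.38 for Adgre1, which encodes F4/80. They were -0.55 ± 0.49 for the lysozyme gene Lyz2, -0.95 ± 0.71 for Csf1r, the receptor for macrophage colony-stimulating factor, and -1.99 ± 0.81 for Itgax, which encodes CD11c (edgeR adjusted p = 0.0932). Cd68 did pass without spleen WT replicate 1, at 2.78 (edgeR adjusted p = 0.00302), and within Flox libraries alone, at 4.97 (edgeR adjusted p = 0.0242), while within WT libraries alone it was at -1.33. Itgax passed without spleen Flox replicate 3, at -2.29 (edgeR adjusted p = 0.0386), and was at -0.79 without spleen Flox replicate 1. Adgre1 was at -2.14 without tumor WT replicate 2, at 2.80 without spleen WT replicate 2 and at 0.06 without both. Csf1r was at -1.81 without tumor Flox replicate 3. The signs of Adgre1 and Tyrobp also turned within WT libraries alone, and those of Lyz2 and Csf1r within Flox libraries alone. Lyz2 shares much of its sequence with Lyz1, which had 1 to 41 counts, so reads may be split between them, and 15.1% of Csf1r exon bases overlap Hmgxb3 on the other strand. In a further list of 18 macrophage genes, 13 were tested, 6 were called higher and 2 lower, and tumor sums of 1958 to 6028 CPM were made up mostly of Ccr2, with 188539 of 194309 counts. Other cell types also differed by tissue. All 9 B cell genes tested and all 5 erythroid and platelet genes tested were called lower in tumor, where 11.2% of all genes tested were called lower. B cell genes summed to 49.5 to 310.4 CPM in tumor against 459.7 to 2189.8 CPM in spleen. Only 4 of the 9 and 0 of the 5 had enough counts in tumor libraries alone. The part of these cell types in the results above was not tested.

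Several genes were set by a few libraries. Adgre1 (chr17:57358581-57483529) had 3.97, 1.91 and 1.24 CPM in tumor Flox and 0.586, 143, 1.13 and 0.859 CPM in tumor WT libraries, against 0.802, 0.497 and 1.09 CPM in spleen Flox and 4.61, 194, 1.38 and 0.564 CPM in spleen WT libraries. The WT replicate 2 library of each tissue stood at 143 and 194 CPM, and none of the other 12 exceeded 4.61 CPM. In tumor WT replicate 2, Csf1r at 0.753 CPM and Cd68 at 3.12 CPM lay within the range of the other tumor WT libraries. Apoe at 35.6 CPM, C1qa at 4.09 CPM and Itgax at 1.61 CPM were each the highest of the tumor WT libraries. The remaining macrophage genes lay within the range of the others. Spleen WT replicate 2 also held the highest spleen level of Lyz2, C1qa, C1qc, Tyrobp, Fcer1g, Ctsb and Csf1r. Without Adgre1 the macrophage sum in WT replicate 2 was 159 CPM in tumor and 265 CPM in spleen. In tumor this was still the highest WT sum, the others starting at 120.0 CPM, and in spleen it fell within the 247 to 274 CPM of the WT libraries. Itgax (chr7:128129526-128150657) had 0.522, 1.15 and 1.46 CPM in tumor Flox and 0.586, 1.61, 0.844 and 0.123 CPM in tumor WT libraries, against 51.3, 6.47 and 0.921 CPM in spleen Flox and 0.409, 1.64, 0.197 and 0.376 CPM in spleen WT libraries. Spleen Flox replicate 1 held 78.0% of all Itgax counts as well as 99.4% of all Cdh1 counts, and the highest spleen level of Ncam1.

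**Figure D4:**
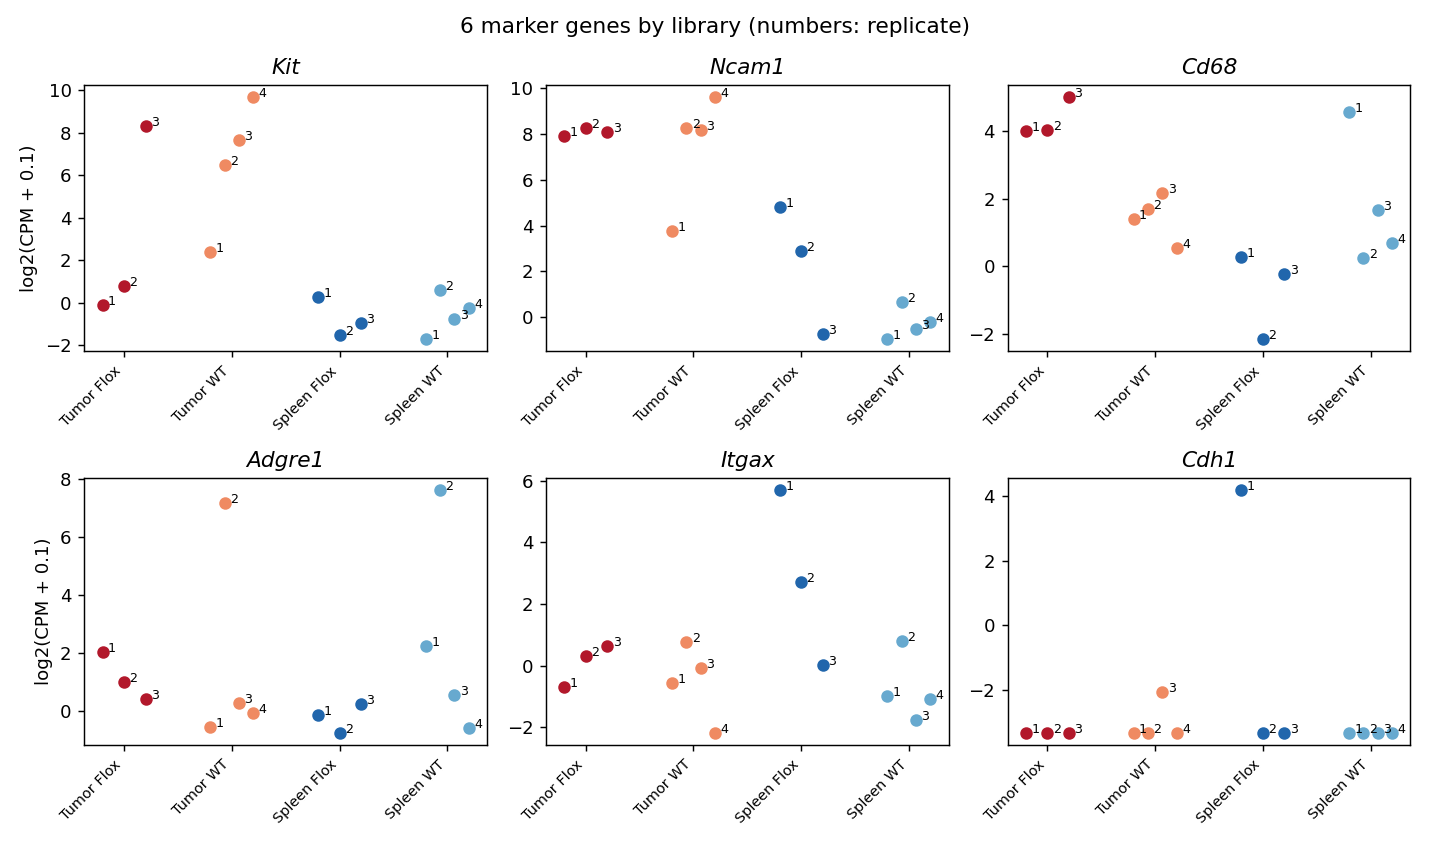
Level of Kit, Ncam1, Cd68, Adgre1, Itgax and Cdh1 (log2(CPM + 0.1)) by library in the 4 groups, with replicate numbers beside the points. Adgre1 is high in WT replicate 2 of both tissues, Itgax and Cdh1 peak in spleen Flox replicate 1, and Kit in tumor spreads over the whole axis.

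The study was built to compare the labels inside each tissue. Among tumor libraries, none of the 29 genes tested passed edgeR's test, nor did any of 10777 genes (0% called). An unadjusted edgeR p under 0.05 was found for 3 of the 29, Cd68, Fn1 and Csf1r, a share close to the 8.08% of all genes tested. DESeq2 called 256 genes and 1 of the 29, and limma voom called 1 gene and 0 of the 29. Their median log2 fold change was 0.02, against -0.06 over all genes tested. The 9 matrix genes tested were divided, with 4 fold changes above 0 and 5 below, and 9 of the 12 macrophage genes lay above 0, as did 46.8% of all genes tested.

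Cd68 (chr11:69664213-69666170) encodes a lysosomal glycoprotein of macrophages. Cd68 had 16, 16.3 and 32.1 CPM in tumor Flox and 2.54, 3.12, 4.36 and 1.35 CPM in tumor WT libraries. All 3 Flox libraries were above all 4 WT libraries, which no other tested gene of the 29 showed, where 2.47% of all genes tested were separated upward. The log2 fold change of Flox over WT was 2.87 ± 0.54 (95% limits 1.82 to 3.93, unadjusted p = 0.000852, edgeR adjusted p = 0.584). With DESeq2 it was 2.88 with an adjusted p of 1.42e-05, while over all alternatives the adjusted p ran up to 0.999. The other macrophage genes did not separate with it, and summed macrophage levels without Adgre1 were 141 to 326 CPM in tumor Flox against 120.0 to 159 CPM in tumor WT libraries. Apoe and Ctsb make up most of those sums. Without these genes as well, the other 9, Cd68 among them, summed to 40.1 to 78.1 CPM in tumor Flox libraries. In tumor WT libraries they summed to 18.5 to 34.8 CPM, with no overlap. Cd68 itself, already picked as separated, gave 16 to 32.1 CPM of the Flox sums and 1.35 to 4.36 CPM of the WT sums. The rest of the 9 did not separate. In tumor Flox replicate 1 the 9 summed to 40.1 CPM with Cd68 at 16 CPM. In tumor WT replicate 3 they summed to 34.8 CPM with Cd68 at 4.36 CPM. Without Cd68 that Flox library thus lay below that WT library. In spleen the sum of the 9 overlapped, at 14.5 to 68.2 CPM in Flox against 12.8 to 62.8 CPM in WT libraries.

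Fn1 gave 1.64 ± 0.68 in tumor (edgeR adjusted p = 0.584) and Sparc 1.42 ± 0.69 (edgeR adjusted p = 0.584), with tumor Flox replicate 3 the highest in both. Without that library they were 1.08 and 0.95. Csf1r had 1.04, 1.79 and 11 CPM in tumor Flox and 0.586, 0.753, 1.41 and 0 CPM in tumor WT libraries. Its fold change of 2.68 ± 1.12 (edgeR adjusted p = 0.584) was 1.03 without tumor Flox replicate 3 and 3.33 without tumor WT replicate 3. Apoe, at 1.5 ± 0.86 (edgeR adjusted p = 0.615), came to 0.03 without the same library. Adgre1 gave -3.95 ± 2.18 (edgeR adjusted p = 0.604), and without tumor WT replicate 2 its counts were too low for a test. Tumor Flox replicate 3 was the highest tumor library for Fn1, Sparc, Csf1r, Apoe and Ccl2.

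In spleen, 14 of the 36 genes had enough counts and none passed, nor did any of 10935 genes (0% called). At an unadjusted p under 0.05, 5 of the 14 stood out, against 6.86% of all genes tested. DESeq2 called 124 genes and 2 of the 14, and limma voom called 0 genes. Fold changes were above 0 for 4 genes and below 0 for 10, where 46.3% of all genes tested lay above 0. Their median was -0.52, against -0.06 over all genes tested. Among the macrophage genes 8 of 10 were below 0.

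Itgax gave 4.85 ± 1.36 (95% limits 2.19 to 7.50, edgeR adjusted p = 0.674) and Ncam1 3.86 ± 1.14 (95% limits 1.63 to 6.08, edgeR adjusted p = 0.674). DESeq2 called both, at adjusted p = 0.0150 for Itgax and 0.0485 for Ncam1. Without spleen Flox replicate 1 these log2 fold changes were 2.40 and 2.19. Adgre1 gave -5.94 ± 2.25 (edgeR adjusted p = 0.674) and, without spleen WT replicate 2, -1.45. Cd68 had 1.1, 0.124 and 0.754 CPM in spleen Flox and 23.6, 1.09, 3.06 and 1.5 CPM in spleen WT libraries. It was at or below 1.10 CPM in Flox and at 1.09 CPM or above in WT libraries, with spleen WT replicate 1 far above the rest. The log2 fold change was -3.41 ± 1.32 (edgeR adjusted p = 0.674), and without that library -1.49. Fcer1g gave -1.68 ± 0.64 (edgeR adjusted p = 0.674) and Lyz2 -1.56 ± 0.80 (edgeR adjusted p = 0.682), both with spleen WT replicate 2 the highest library. Without it they were -1.25 for Fcer1g and -1.04 for Lyz2, and Fcer1g was at -2.33 without spleen Flox replicate 3. Ctsb was the only tested gene of the 14 whose groups did not overlap, at 28.9, 21.6 and 28.1 CPM in Flox and 30.6, 49.7, 35.8 and 33.1 CPM in WT libraries (log2 fold change -0.51), where 3.14% of all genes tested were separated downward.

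**Figure D5:**
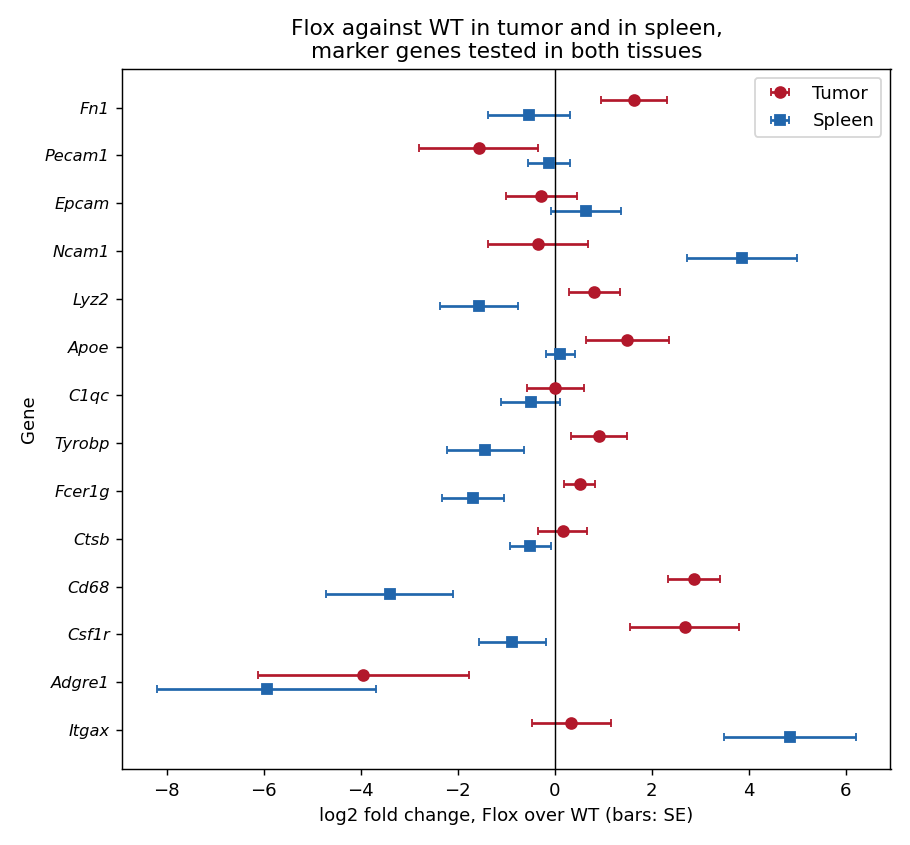
Log2 fold change of Flox over WT with its SE (horizontal axis) in tumor (circles) and spleen (squares) for the 14 genes tested in both tissues. Cd68 lies at 2.87 in tumor and -3.41 in spleen, Itgax and Ncam1 lie far to the right in spleen, and none passed after adjustment.

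The Flox effect was also compared between tissues in a fit of all 14 libraries, as the effect in tumor minus that in spleen. None of the 29 genes passed, nor did any of 12008 genes (0% called). At an unadjusted p under 0.05, 8 of the 29 stood out, against 10.8% of all genes tested. DESeq2 called 134 genes and 0 of the 29, and limma voom called 0 genes. Cd68 had the smallest p among the 29, with a difference of 6.34 ± 1.48 on the log2 scale (95% limits 3.44 to 9.24, unadjusted p = 0.000888, edgeR adjusted p = 0.425), and 4.39 without spleen WT replicate 1. Fcer1g gave 2.21 ± 0.75, Sparc 3.09 ± 1.06 and Csf1r 3.61 ± 1.44, while Itgax gave -4.45 ± 1.63 and Ncam1 -4.19 ± 1.63 (edgeR adjusted p = 0.425 to 0.431 for these 5). Single libraries moved each of these 5. Without spleen Flox replicate 1 Itgax came to -2.05 and Ncam1 to -2.52, and without spleen Flox replicate 3 Fcer1g came to 2.86 and Sparc to 3.81. Csf1r ran from 1.91 without tumor Flox replicate 3 to 4.26 without spleen Flox replicate 1, and was 2.92 without both WT replicate 2 libraries. Itgax was -3.81 without tumor WT replicate 2 and -5.50 without spleen WT replicate 2, and Ncam1 was -3.40 without tumor WT replicate 4. Differences were above 0 for 10 of the 12 macrophage genes and for 50.6% of all genes tested. Over all genes tested the SE had a median of 0.74 in tumor, 0.61 in spleen and 1.13 for the difference, so a gene that missed the threshold is not shown to be equal in Flox and WT.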

How the data were processed

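The table deposited by the authors holds raw counts, not normalized, of 27179 genes in 14 libraries. Per the submitters' processing notes the build was mm10. The aligner, the counter and the strand setting were not given in the sources used here. Per the labels' protocols, polyadenylated RNA (Qiagen RNeasy Plus micro kit) went into ultra-low-input libraries at GeneWiz. Gene numbers were matched to symbols and coordinates of RefSeq GRCm38.p6, and exon lengths came from GENCODE M21.

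Deposited counts were tested with edgeR 4.0.16 in R 4.3.3 (quasi-likelihood F test, TMM factors and filterByExpr on the groups), adjusted by Benjamini-Hochberg over every gene tested and called under 0.05. Tumor against spleen and the difference of Flox effects used all 14 libraries as 4 group means, and Flox against WT used the libraries of its tissue. The SE is the absolute log2 fold change divided by the square root of F, and 95% limits are 1.96 SE to each side. CPM are counts scaled to the TMM-adjusted library total. A group at 0 was given a floor of 3 counts over the group, and genes too low to test, or with 1 to 3 counts in a group, a ratio of depth-scaled counts. Its exact 95% interval covers counting error only. No pair of libraries agreed within sampling noise (chi-square per degree of freedom 92.1 to 391). Each test was tested on simulated data.

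The 36 genes and the 10 further cell type lists (116 of 117 genes found) were chosen with earlier results of these data known. Fold changes are printed for genes that passed and, where fewer than 6 did, for the 6 with the smallest p. Values in every library are printed for those and for the 2 genes of each class with most counts, and a few other genes were shown after their values were seen. Alternatives were DESeq2 1.42.0, limma voom 3.58.1 with sample quality weights, RLE size factors, a replicate block, no filter, a minimum of 5 CPM in 3 libraries, all 14 libraries in 1 fit, WT or Flox libraries alone, both WT replicate 2 libraries left out, and each library left out in turn. The macrophage sums without Adgre1, and without Adgre1, Apoe and Ctsb, were added after seeing the data. Plots used matplotlib 3.10.9 and Python 3.11.15.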

Additional observations from a re-analysis of the deposited data

Results flagged for a closer look

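In groups of 4 libraries, a library was singled out where its gap to the nearest other exceeded Dixon's 95% critical share of the group's range. This met 9 of 57 groups with at least 10 counts, and chance gives about 1 in 20 where values are independent and normal. The groups were not independent, since the summed macrophage levels include Adgre1, so these shares are not a test. Spleen WT replicate 2 accounted for 5 of the 9 and tumor WT replicate 2 for 2.

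Adgre1 was at 143 CPM in tumor WT replicate 2, with the other tumor WT libraries at 0.586 to 1.13 CPM, and at 194 CPM in spleen WT replicate 2, with the others at 0.564 to 4.61 CPM. The summed macrophage level stood apart in these same libraries, at 302 CPM in tumor (others 121 to 150.5 CPM) and 459 CPM in spleen (others 248 to 278 CPM). In spleen WT replicate 2, Csf1r was at 9.91 CPM (others 2.44 to 3.55), C1qa at 2.11 CPM (others 0.188 to 0.512) and Itgax at 1.64 CPM (others 0.197 to 0.409). Cd68 was at 23.6 CPM in spleen WT replicate 1, with the other spleen WT libraries at 1.09 to 3.06 CPM. Col6a3 was at 22.0 CPM in tumor WT replicate 4, with the other tumor WT libraries at 12.1 to 13.5 CPM.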

How the results depend on the processing

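The 22 marker genes called between tissues, and the genes given for Flox against WT and for the difference, kept their sign under every alternative that gave a value. Of the 7 not called between tissues, 5 changed sign. Within WT libraries alone Cd68 was at -1.33, Adgre1 at -0.47 and Tyrobp at -0.53, within Flox libraries alone Lyz2 was at 0.67 and Csf1r at 0.85, and over single omissions Adgre1 ran from -2.14 to 2.80. For tumor against spleen, 2897 genes passed, and 750 did in WT libraries alone and 847 in Flox libraries alone, where 14 and 13 of the marker genes passed in place of 22. These fits hold fewer libraries. Over the omissions of 1 library the counts were 2434 to 2940 genes and 19 to 22 marker genes. Calls were lost under at least 1 alternative by C1qa, C1qb, C1qc, Epcam, Ctsb, Ncam1, Kit, Apoe and Fcer1g, and by none of the 9 matrix genes nor by Sox9, Tm4sf1, Perp or Ccl2. Cd68 gained a call with limma voom (adjusted p = 0.0480) and Itgax with DESeq2 (adjusted p = 0.0449). For Flox against WT in tumor, where 0 genes passed, DESeq2 called 256 genes and 1 marker gene (Cd68) and limma voom 1 gene. In spleen, DESeq2 called 124 genes and 2 marker genes (Itgax and Ncam1), the filter of 5 CPM gave 1 gene, leaving out both WT replicate 2 libraries 1, all 14 libraries in 1 fit 4, and single omissions 0 to 1. For the difference, DESeq2 called 134 genes and single omissions gave 0 to 1. The cause of these differences was not tested. Adgre1 could not be tested in tumor without WT replicate 2.

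With the replicate number as a block, 1823 genes and 19 marker genes passed for tumor against spleen (C1qa, C1qb, C1qc and Epcam no longer, Cd68 in addition), and 0 genes passed in the other comparisons. Same-numbered libraries did not deviate together (correlations of -0.03 to 0.05 over 13 pairs), so the numbers were not taken as pairing, and 2 of 14 libraries matched best with their own number across tissues and 5 of 12 across labels. The ratio of the untested Bgn was 6.5 to 15.7 over single omissions. Genes under about 3 counts in a group could not be distinguished from 0 at this depth.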

Other observations

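Other cell types the sorts could hold were searched by list. Of 10 neutrophil and mast cell genes, 3 could be tested for tumor against spleen and none was called. The list summed to 0 to 166 CPM in tumor and 0.373 to 56.8 CPM in spleen libraries. Csf3r gave 1315 of its 1531 tumor counts. Tumor Flox replicate 2, the library at 166 CPM, held reads of only 1 of the 10 genes. Cxcr2, Retnlg and Elane were at 0 in all tumor libraries and Ms4a2, a mast cell Fc receptor chain, in all 14. Of 10 dendritic cell genes, 6 were tested and 1 was called higher in tumor, where 13% of all genes tested were. This was Zbtb46, a transcription factor of conventional dendritic cells (log2 fold change 3.69 ± 0.60, edgeR adjusted p = 0.00109). It did not pass within WT libraries alone (3.15, edgeR adjusted p = 0.0506). The list summed to 404 CPM in spleen WT replicate 2 and to 52.6 to 90.7 CPM in the other spleen libraries. That library also held the highest spleen sums of the B cell, neutrophil and mast cell, erythroid and platelet, and further endothelial lists. It was not highest in spleen for the further fibroblast, macrophage, carcinoma, or pericyte and smooth muscle lists. Of 8 genes of pericytes and smooth muscle, 3 were tested, with Cspg4 called higher (6.67 ± 1.63, edgeR adjusted p = 0.0134) and Acta2 lower (-5.25 ± 1.44, edgeR adjusted p = 0.0187). Neither call held over all omissions. Cspg4 was at 5.64 without tumor Flox replicate 1 (edgeR adjusted p = 0.0678), 5.57 without tumor WT replicate 4 and 7.42 without spleen WT replicate 1. Acta2 was at -1.74 without spleen Flox replicate 3 (edgeR adjusted p = 0.439), -5.02 without tumor Flox replicate 2 (edgeR adjusted p = 0.0506) and -5.19 without tumor Flox replicate 3 (edgeR adjusted p = 0.0539).

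Hemoglobin genes were lower in tumor. Hbb-bs held 22 counts in tumor and 2654 in spleen (log2 fold change -6.51 ± 1.21, edgeR adjusted p = 0.00238). It ran to -8.43 without tumor WT replicate 1, was -7.24 without tumor Flox replicate 1 and -5.87 without both WT replicate 2 libraries, and did not pass within WT libraries alone (-5.48, edgeR adjusted p = 0.0754). The erythroid and platelet list summed to 0.638 to 31.9 CPM in tumor against 57.1 to 594 CPM in spleen. Of 10 genes of T cells and Tregs, all tested, Ctla4, Il2ra and Ikzf2 were called higher in tumor and 7 did not pass. The list summed to 7212 to 11593 CPM in tumor against 4085 to 6884 CPM in spleen, lowest in spleen WT replicate 2.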
